A study of Mus musculus with 6 samples.

Results

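Open chromatin was examined at 10 genes of the Wnt pathway in mouse intestinal organoids: Lgr4, Rnf43, Znrf3, Axin2, Sp5, Nkd1, Notum, Tcf7, Lef1 and Tcf7l2. A consensus peak counted as belonging to one of them where its centre lay within 50 kb of an end of the gene and nearer to it than to any other protein-coding gene. This gave 114 of the 90823 peaks, and 113 of the 114 had enough reads to be tested. The organoids, grown from mouse crypts in Matrigel, received vehicle, 25 µM arachidonic acid (AA) or 50 nM prostaglandin E2 (PGE2) for 3 days, and 2 ATAC-seq libraries were made per group. The design text names the prostaglandin as a dimethyl analogue and the treatment protocol as PGE2. The labels give no strain, age, sex or number of mice.

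All 3 groups, the controls included, were grown with 2 agents that raise Wnt signalling: R-spondin at 62.5 ng/ml and CHIR-99021, an inhibitor of the kinase GSK3, at 5 µM. EGF at 40 ng/ml, Noggin at 50 ng/ml, N-acetylcysteine, Y-27632, B27 and N2 completed the medium. Every value below is therefore from cells whose Wnt pathway was already driven in the controls. ATAC-seq cuts and tags DNA that is open to the Tn5 transposase, so a peak's read count measures how accessible that stretch is, not how much the gene is transcribed.

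Wnt signals reach the nucleus through β-catenin, which binds DNA by way of the TCF/LEF factors, here Tcf7, Lef1 and Tcf7l2. Several targets of the pathway restrain it in turn. Axin2 is a scaffold of the complex that destroys β-catenin, Nkd1 binds Dishevelled, Notum is a secreted enzyme that removes the lipid from Wnt ligands, and Rnf43 and Znrf3 are ubiquitin ligases that clear Frizzled receptors from the cell surface. R-spondins bound to Lgr4 and its relatives block those ligases. In the intestine this pathway maintains the stem cells of the crypt.

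The sequence just before the start site is shown for 3 of the genes, as the clearest cases of a start-site peak that was higher with PGE2 by the test (Sp5), higher in both PGE2 libraries without passing it (Axin2), and level (Lgr4). They are the 250 bases before the RefSeq start in GRCm38.p6, plus strand, at chr2:70474673-70474922, chr11:108920099-108920348 and chr2:109917397-109917646. All 3 stretches lie within an accessible peak. Capitals mark CTTTGAT, the core that TCF/LEF factors bind.
Sp5: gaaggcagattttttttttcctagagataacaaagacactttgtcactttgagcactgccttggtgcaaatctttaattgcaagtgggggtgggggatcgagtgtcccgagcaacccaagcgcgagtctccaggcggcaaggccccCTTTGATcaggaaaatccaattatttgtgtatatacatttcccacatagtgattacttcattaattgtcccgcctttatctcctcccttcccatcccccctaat
Axin2: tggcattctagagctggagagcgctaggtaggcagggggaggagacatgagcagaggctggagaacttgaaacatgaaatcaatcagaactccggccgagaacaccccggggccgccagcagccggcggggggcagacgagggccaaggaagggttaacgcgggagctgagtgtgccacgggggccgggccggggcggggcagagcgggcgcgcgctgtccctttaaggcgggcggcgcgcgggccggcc
Lgr4: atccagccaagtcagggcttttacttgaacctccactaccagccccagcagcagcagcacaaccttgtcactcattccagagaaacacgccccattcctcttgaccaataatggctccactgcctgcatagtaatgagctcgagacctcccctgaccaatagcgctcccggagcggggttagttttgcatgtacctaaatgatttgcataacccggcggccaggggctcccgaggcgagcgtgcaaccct
RefSeq promoter windows, from 250 bases before to 50 bases after a start, were at hand for 8 of the 10 genes, in 14 windows, and 9 of the 14 overlapped a peak, against 46.3% of 32851 windows of all genes. CTTTGAT on either strand was found in 1 of the 14 windows, that of Sp5, beginning 104 bases before the start, against 3.73% of all windows. The related form CTTTGAA and the AP-1 motif TGANTCA were found in none of the 14, against 5.14% and 7.81% of all windows. Such a match is a match of letters and was not tested for binding.

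The 10 genes held between 3 peaks (Notum, Tcf7) and 24 peaks (Tcf7l2), where a gene with a tested peak had a median of 3. Znrf3 had 19, Lgr4 18, Axin2 15, Rnf43 13, Lef1 9, Sp5 6 and Nkd1 4. Peaks inside a gene that did not meet the rule were left out: 20 in Tcf7l2, 2 in Tcf7 and 1 in Znrf3. Sums for these genes therefore do not cover the whole gene. Of the 114 peaks 77 (67.5%) lay inside the gene, against 51.5% of all peaks, and 9 (7.89%) lay within 1 kb of a gene end, against 16.1%. Their median length of 584 bp and median signal in vehicle of 8.27 CPM per kb (CPM, a peak's share of the library's counts on a common scale, divided by peak length) were close to the 547 bp and 8.51 CPM per kb of all peaks. Tcf7l2 shows the edge of the rule: its outermost peak that was kept, 46726 bp from a gene end, had 13.3, 9.82 and 12.7 CPM in vehicle, AA and PGE2, and the nearest one left out, at 50910 bp, had 11, 8.74 and 9.68 CPM.

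Summed over a gene's peaks and divided by their length, accessibility in vehicle differed widely among the 10 genes. Rnf43 was the most accessible with 49.3 ± 0.39 CPM per kb (SD, n = 2), above 95.9% of the 16762 genes tested. Axin2 followed with 29.5 ± 0.26, Lgr4 with 21.4 ± 0.26, Tcf7l2 with 17.3 ± 0.63, Sp5 with 13.7 ± 0.16 and Znrf3 with 11.2 ± 0.26 CPM per kb. Tcf7 (7.74 ± 0.0015) and Lef1 (7.42 ± 0.091) lay closest together. No 2 neighbours in this order overlapped between the vehicle libraries. Notum (5.66 ± 0.24) and Nkd1 (4.53 ± 0.22 CPM per kb) were the least accessible, with Nkd1 above only 3.64% of genes. The median gene had 16.2 CPM per kb.

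**Figure D1:**
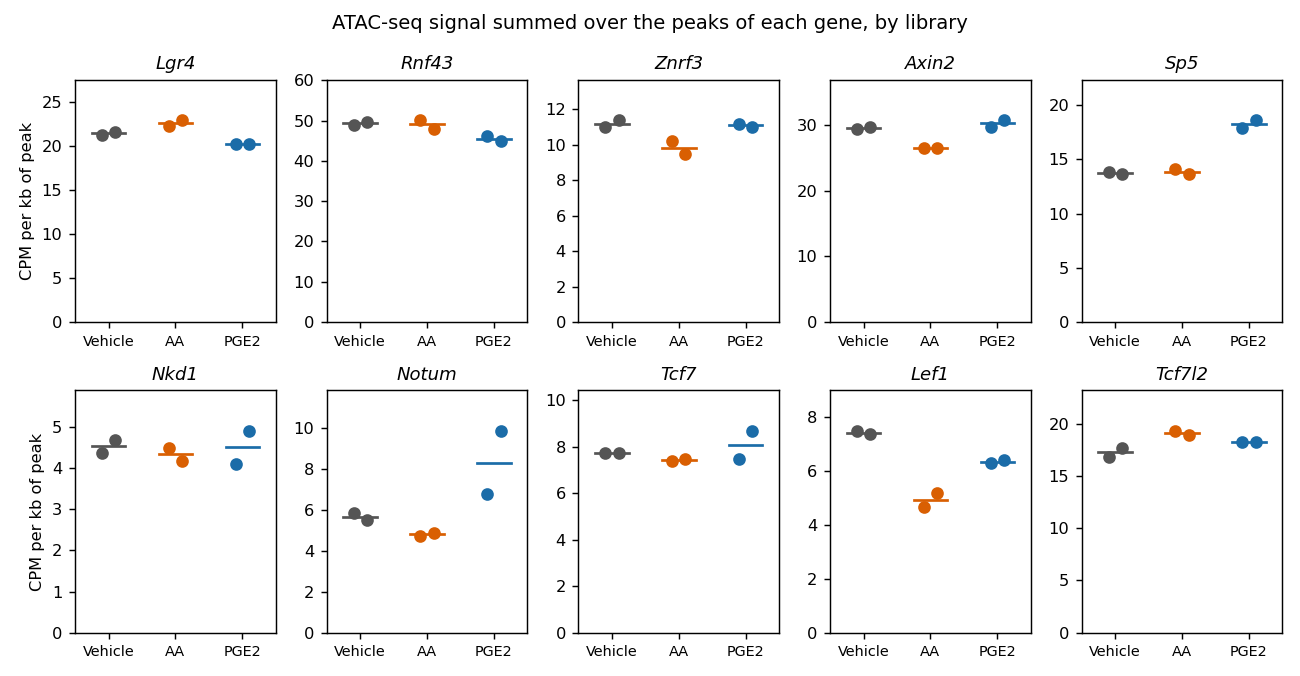
Summed accessibility of each gene (CPM per kb of peak, linear axes from 0) in each of the 6 libraries; points are libraries and bars are group means of 2. Lef1 is lowest in both AA libraries, Sp5 is highest in both PGE2 libraries, and the 2 PGE2 libraries of Notum lie far apart.

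Library totals were 12374232 to 14236985 counts, of which the 114 peaks took 0.137% to 0.142%. Peaks within 1 kb of a gene end took 31.4% and 31.9% of the counts in the vehicle libraries, 32.3% and 32.8% in AA, and 34.3% and 35.8% in PGE2 replicates 1 and 2. PGE2 replicate 2 thus stood apart at gene ends, and the variance of the PGE2 pair was 1.55 times that of counting noise, against 1.1 for vehicle and 1.12 for AA. Markers of gut epithelium (8 of 8 with tested peaks) summed to 45.6 to 50.7 CPM per kb, lowest in the PGE2 libraries at 46.4 and 45.6. Those of stroma (6 of 8, none for Col1a2 and Col3a1) summed to 11.5 to 13.0, and those of endothelium (5 of 5) to 12.2 to 13.2 CPM per kb. The part of these differences in the results was not tested. Fewer cells with a region open and less opening per cell cannot be told apart in bulk libraries. The labels do not say whether the 2 libraries of a group came from separate cultures, so p-values measure the spread between these libraries, which may be technical.

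With AA, 12 of the 113 tested peaks were higher than in vehicle and 15 were lower, by edgeR's quasi-likelihood test at an adjusted p under 0.05. That is 23.9% of the members, against 30.5% of all peaks (16.7% higher and 13.8% lower). With PGE2, 10 were higher and 9 lower (16.8%), against 24.9% of all peaks (14.3% higher and 10.6% lower). Between AA and PGE2, 5 were higher and 9 lower in AA (12.4%), against 9.95% of all peaks (5.06% higher and 4.88% lower). The members were therefore called no more often than peaks in general in the comparisons with vehicle. Median log2 changes were -0.05, -0.02 and -0.02, against -0.02, -0.00 and -0.01 over all peaks. DESeq2 called 7, 7 and 1 member peaks in the 3 comparisons, and leaving out 1 library at a time gave 17 to 35, 9 to 20 and 6 to 14. With library totals as scaling the splits became 9 higher and 21 lower for AA, 9 and 15 for PGE2, and 5 and 10 between them. With DESeq2 they were 5 and 2 for AA, 7 and 0 for PGE2, and 0 and 1 between them. Scaling peaks within 1 kb of a gene end separately gave 12 and 15, 12 and 4, and 4 and 9. The split by direction was therefore not stable, least so for the losses with PGE2. The shares of all peaks called under these settings are not given here.

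Both treatments are set against the same vehicle libraries, so their calls are not independent. Of the 113 peaks, 5 were called higher with both treatments, 5 lower with both, 7 higher and 10 lower with AA alone, 5 higher and 4 lower with PGE2 alone, and 77 with neither; a call in one alone does not show that the treatments differed. The share of all peaks with each of these joint calls was not computed. By gene the called peaks with AA were few, where 16.7% of all peaks were higher and 13.8% lower. DESeq2 called 0 to 2 peaks per gene with AA, and a difference in direction between genes was not tested. Lgr4 (5 higher, 1 lower) and Tcf7l2 (4 higher, 1 lower) had mostly gains. Znrf3 (4 lower), Lef1 (3 lower) and Axin2 (1 higher, 3 lower) had mostly losses, Rnf43 had 2 higher and 1 lower, Sp5 and Notum 1 lower each, and Nkd1 and Tcf7 none.

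**Figure D2:**
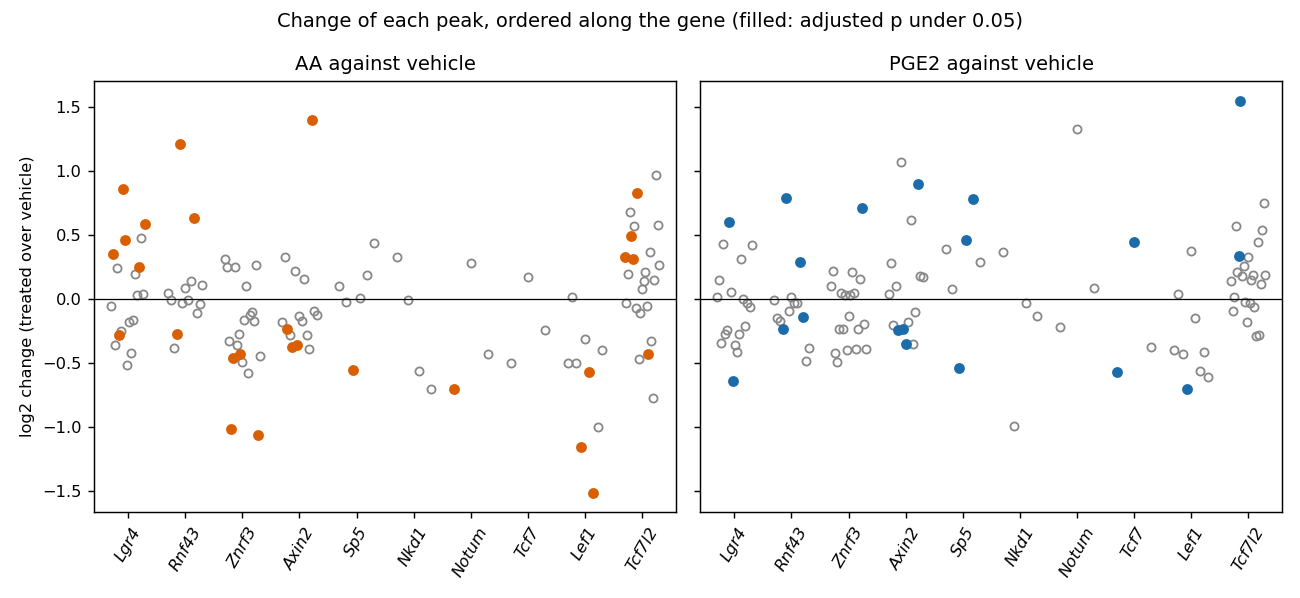
Log2 change of each tested peak by gene, AA against vehicle (left) and PGE2 against vehicle (right); each point is a peak in the order of its coordinates, and filled points had an adjusted p under 0.05. Called peaks of Lef1 and Znrf3 lie below 0 with AA, most of those of Lgr4 and Tcf7l2 above it, and Sp5 has its highest points with PGE2.

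Summed over the member peaks of each gene, 1 of the 10 had more signal with AA (Tcf7l2) and 3 had less (Lef1, Axin2, Znrf3). Of all genes 32.2% were called (16.3% higher, 15.9% lower). With PGE2, 2 had more (Sp5, Notum) and 3 had less (Lef1, Rnf43, Lgr4), where 38.5% of all genes were called (20.8% higher, 17.7% lower). AA differed from PGE2 at 7 genes, higher at Lgr4 and Rnf43 and lower at Notum, Sp5, Lef1, Axin2 and Znrf3, where 17.7% of all genes were called (8.7% higher, 8.96% lower). These shares are not like for like, since the members sum up to 24 peaks against a median of 3 per gene. Larger sums let smaller changes pass, and genes with as many peaks were not compared. The sums were also scaled apart from the single peaks, over only the peaks given to a gene. Small summed changes depend on that scaling, and the sums were not tested on the scale of the single peaks. Of single member peaks 12.4% were called between AA and PGE2, against 9.95% of all peaks. Nkd1 and Tcf7 passed in no comparison. Of these 16 calls, 7 held in each of the 6 fits that left out 1 library, and 10 held with DESeq2. Of the 36 calls of single peaks described below that follow the naming rule, 15 held in each of those 6 fits. Of the 34 with an adjusted p from DESeq2, 13 held there: those of Sp5 at its start and inside the gene (3 calls), the Lgr4 peak at 35350 bp and the short Rnf43 peak with both treatments, Znrf3 at the gene end (PGE2) and outside it (AA), Axin2 beyond the gene (AA), Lef1 deep in the gene (AA), and Tcf7l2 upstream (AA) and after its start (PGE2).

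**Figure D3:**
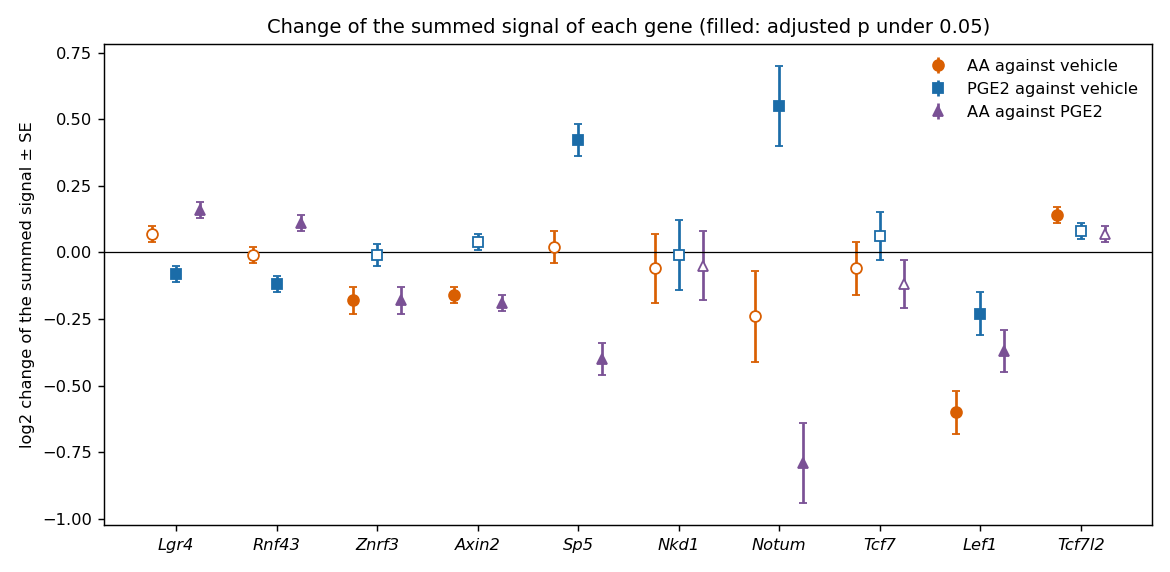
Log2 change (± SE from the fit) of the summed signal of each gene in the 3 comparisons; filled symbols had an adjusted p under 0.05. The lowest AA value is Lef1 at -0.60, and PGE2 is highest at Notum (0.55) and Sp5 (0.42).

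Lgr4, the receptor that R-spondin binds, showed gains inside the gene and a level start site. Its start-site peak, chr2:109917214-109917994, had 56.2 and 55.3 CPM in vehicle, 50.0 and 57.8 in AA, and 54.3 and 59.0 in PGE2, and was the gene's strongest. The groups overlapped there, and the changes were -0.05 ± 0.07 (log2, SE) with AA and 0.02 ± 0.07 with PGE2 (adjusted p = 0.591 and 0.85), the latter -0.15 where gene-end peaks were scaled on their own. At chr2:109952350-109953645, 35350 bp into the gene, vehicle had 9.04 and 9.61 CPM, AA 17.1 and 16.7, and PGE2 14.7 and 13.5. All 4 treated libraries were above both vehicle libraries, with changes of 0.86 ± 0.12 (adjusted p = 1.1e-07) and 0.60 (adjusted p = 0.000161). AA and PGE2 did not pass against each other there (0.26, adjusted p = 0.118).

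Farther along Lgr4, the peak at chr2:109992606-109993347 had 30.6 and 31.8 CPM with AA, 21.4 and 24 with PGE2, and 25.7 and 26.9 in vehicle. The groups did not overlap: AA lay above vehicle and PGE2 below it, and AA exceeded PGE2 by 0.46 ± 0.09 (adjusted p = 0.000397, 0.0596 with DESeq2). PGE2 against vehicle did not pass there (-0.21, adjusted p = 0.0768). Summed over its 18 peaks, Lgr4 differed between AA and PGE2 by 0.16 ± 0.03 (adjusted p = 0.00244; 0.09 and 0.176 within 10 kb of a gene end), the AA libraries having 279 and 288 CPM and both PGE2 libraries 254. Against vehicle the sum with AA was at 0.07 (adjusted p = 0.0739), and at 0.14 (adjusted p = 0.000192) without peaks within 3 kb of a gene end. In that last setting the sum with PGE2 was at -0.02 (adjusted p = 0.688). The summed change with PGE2 against vehicle, -0.08 (adjusted p = 0.0429), was lost without any 1 of the vehicle or PGE2 libraries (adjusted p up to 0.195), and with DESeq2 (0.253). The losses with the smallest p within Lgr4 were lost as calls when single libraries were left out. They were at chr2:109932141-109933080 with AA (-0.28, adjusted p = 0.0387, up to 0.261 without either library of vehicle or AA) and at chr2:109963737-109964082 with PGE2 (-0.64, adjusted p = 0.0279, up to 0.306 without a vehicle library or PGE2 replicate 2).

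Rnf43, a ligase that Lgr4 and R-spondin inhibit, held the strongest peak of the set, and its summed signal was lower with PGE2. That peak, chr11:87709259-87710801 inside the gene, had 109 and 108 CPM in vehicle, 103 and 98.0 in AA, and 97.9 and 99.7 in PGE2. Both treatments lay below vehicle, by 0.11 with AA (adjusted p = 0.0802) and by 0.14 with PGE2 (adjusted p = 0.0385, up to 0.162 without a vehicle library or PGE2 replicate 1). Summed CPM were 551 and 557 in vehicle, 563 and 539 in AA, and 519 and 503 in PGE2. The PGE2 libraries were the lowest of the 6, with a change of -0.12 ± 0.03 (adjusted p = 0.00266), and AA exceeded PGE2 by 0.11 (adjusted p = 0.0104, 0.153 without AA replicate 1). Neither call held within 10 kb of a gene end (adjusted p = 0.192 and 0.224) or without peaks within 3 kb (-0.03, adjusted p = 0.318, and 0.06, adjusted p = 0.0673). The sums without peaks within 3 kb dropped only the start-site peak of Rnf43, itself at -0.01 with PGE2. All libraries were scaled anew for them, as they were for the main sums. The calls therefore depended on scaling and not only on the peaks included.

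Single peaks within Rnf43 gained signal. The short peak chr11:87682180-87682360 had 3.83 and 4.88 CPM in vehicle, 11.2 and 8.81 in AA, and 7.71 and 7.33 in PGE2. It rose by 1.21 ± 0.16 with AA (adjusted p = 8.27e-08) and by 0.79 with PGE2 (adjusted p = 0.000476). The 3 groups did not overlap. At chr11:87702194-87702994, 16.8 and 18.6 CPM in vehicle compared with 28.1 and 26.5 in AA and 21.3 and 22.1 in PGE2, a rise of 0.63 with AA (adjusted p = 7.91e-07) and of 0.29 with PGE2. AA exceeded PGE2 there by 0.34 (adjusted p = 0.0118, 0.149 without AA replicate 1). The neighbouring strong peak at chr11:87680713-87681380 went the other way, from 45.3 and 44.6 CPM to 38.1 and 36.5 with AA (-0.27, adjusted p = 0.00335, 0.0546 at most without vehicle replicate 1 or AA replicate 2) and 40.4 and 36.5 with PGE2 (-0.23, adjusted p = 0.016, up to 0.183 without a vehicle library or PGE2 replicate 2). At the start-site peak, chr11:87662236-87663121, the 6 libraries had 22.2 to 25.3 CPM and the changes were 0.05 ± 0.09 with AA and -0.01 ± 0.09 with PGE2.

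Znrf3, the paralogue of Rnf43, had a gain at its gene end with PGE2 and losses elsewhere with AA. The gene-end peak, chr11:5444739-5445839, was its strongest, with 13.1 and 14.3 CPM in vehicle, 17.3 and 15.7 in AA, and 18.1 and 26.9 in PGE2. Both PGE2 libraries were above the other 4, and the change was 0.71 ± 0.17 (adjusted p = 0.011). It was 0.40 to 0.97 as single libraries were left out, and adjusted p reached 0.0906 without a vehicle library. The peak chr11:5451492-5452290, outside the gene, fell from 5.97 and 4.88 CPM in vehicle to 2.74 and 2.45 in AA (-1.06 ± 0.21, adjusted p = 9.11e-05), with 5.34 and 4.17 in PGE2. AA was below PGE2 there by 0.87 (adjusted p = 0.00589, up to 0.0908 without AA replicate 2 or PGE2 replicate 1).

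Summed over its 19 peaks, Znrf3 fell with AA by 0.18 ± 0.05 on the log2 scale (adjusted p = 0.00492), from 130 and 134 CPM to 120 and 112. The call was lost without vehicle replicate 2 or AA replicate 2 (adjusted p up to 0.1), with DESeq2 (0.0731), and where only peaks within 10 kb of a gene end were summed (0.02, adjusted p = 0.881). AA was also below PGE2, by 0.18 (adjusted p = 0.0128; 0.17 without AA replicate 2, 0.125 with DESeq2 and 0.0687 within 10 kb).

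Axin2, a widely used readout of Wnt activity, was lower with AA in the sum of its 15 peaks, 6 of them inside the gene. Its start-site peak was highest with PGE2. Summed CPM were 316 and 320 in vehicle, 286 and 285 in AA, and 320 and 332 in PGE2. Both AA libraries lay below the other 4. The change with AA was -0.16 ± 0.03 (adjusted p = 0.000587) and AA was below PGE2 by 0.19 ± 0.03 (adjusted p = 0.000406). PGE2 against vehicle was 0.04 (adjusted p = 0.357). Both AA results held without any 1 library, and the change with AA was -0.15 (adjusted p = 1.65e-05) without peaks within 3 kb of a gene end.

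The start-site peak of Axin2, chr11:108920091-108921295, whose first bases are in the sequence above, had 20.6 and 22.0 CPM in vehicle, 25.3 and 24.4 in AA, and 34.2 and 55.0 in PGE2. The groups did not overlap, and the 2 PGE2 libraries differed widely. The PGE2 change of 1.07 ± 0.29 did not pass (adjusted p = 0.0868). DESeq2 gave an adjusted p of 0.00476, and the fit with the replicate number as a block gave 0.0176. Without PGE2 replicate 2 the change was 0.68, and without PGE2 replicate 1 it was 1.37 (adjusted p = 4.78e-10 and 3.16e-52, each with the lone library assumed to vary like the others). With AA the change was 0.22 ± 0.31 (adjusted p = 0.663).

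At Axin2, 3 peaks were called lower with AA, 2 of them upstream of the gene and 1 inside it. At chr11:108910460-108911338, upstream of it, vehicle had 26.6 and 26.8 CPM, AA 20.1 and 21.1, and PGE2 22.1 and 23.1. All treated libraries were below vehicle, by 0.37 ± 0.09 with AA (adjusted p = 0.0011) and by 0.24 with PGE2 (adjusted p = 0.0399, up to 0.162 without vehicle replicate 1 or 2, AA replicate 2 or PGE2 replicate 1). The most distant peak, chr11:108984501-108985283, was the gene's strongest. It had 45.5 and 44.0 CPM in vehicle, 41.2 and 41.0 in AA, and 49.3 and 51.5 in PGE2. AA was below PGE2 by 0.29 ± 0.07 (adjusted p = 0.00276), and neither treatment passed against vehicle (-0.12 and 0.17, adjusted p = 0.168 and 0.0532). One small peak beyond the gene, chr11:108955442-108955785, rose, from 1.76 and 1.53 CPM to 4.43 and 4.24 with AA (1.40 ± 0.24, adjusted p = 1.24e-05) and 2.82 and 3.32 with PGE2 (0.90, adjusted p = 0.00885, up to 0.0888 without vehicle replicate 2 or PGE2 replicate 2).

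Sp5, a transcription factor and direct target of β-catenin and TCF, gained signal with PGE2 and did not pass with AA. Its start-site peak, chr2:70474391-70475385, which covers the sequence printed above with its CTTTGAT, had 21.8 and 21.7 CPM in vehicle, 22.2 and 21.8 in AA, and 28.1 and 32.0 in PGE2. Vehicle and AA could not be separated (0.01 ± 0.09, adjusted p = 0.93), and both PGE2 libraries lay above all others (0.46 ± 0.09, adjusted p = 8.91e-05). AA was below PGE2 by 0.45 (adjusted p = 0.000619). Scaling gene-end peaks on their own lowered the PGE2 change to 0.29 (adjusted p = 0.00983). The neighbouring peak chr2:70475644-70477213, over most of the gene, had 14.9 and 15.1 CPM in vehicle, 16.9 and 17.5 in AA, and 25.1 and 26.5 in PGE2. It rose by 0.78 ± 0.10 with PGE2 (adjusted p = 4.21e-08), and AA was below PGE2 by 0.59 ± 0.10 (adjusted p = 5.33e-05), while AA against vehicle was 0.19 (adjusted p = 0.159).

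Summed over its 6 peaks, Sp5 was 1.34-fold higher with PGE2 (0.42 ± 0.06, adjusted p = 4.25e-05), with 56.7 and 55.8 CPM in vehicle, 58.1 and 56.1 in AA, and 73.8 and 76.7 in PGE2. AA was below PGE2 by 0.40 ± 0.06 (adjusted p = 0.000338). Both held without any 1 library and with DESeq2. Without peaks within 3 kb of a gene end, which leaves 3 weak ones, the PGE2 change was 0.35 (adjusted p = 0.111) and AA against PGE2 was -0.12 (adjusted p = 0.67). Just upstream, the peak chr2:70471948-70472345, was lower with both treatments, with 5.13 and 5.26 CPM in vehicle, 4.36 and 2.61 in AA, and 3.97 and 3.16 in PGE2. Its changes of -0.55 and -0.54 (adjusted p = 0.0348 and 0.0451) were lost without either vehicle library, AA replicate 2 (AA) or PGE2 replicate 2 (PGE2), with adjusted p up to 0.46 and 0.263.

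Sp5 was the member with the strongest evidence of any change among the groups, so the genes with the most similar pattern of summed signal over the 6 libraries were listed. Among 9629 genes with at least 3 tested peaks, Ythdf1 (root mean square difference 0.035 on the centred log2 scale), Pthlh (0.038), Pank4 (0.039), 4930444P10Rik (0.04) and Sun2 (0.042) were nearest. Their PGE2 changes were 0.38 to 0.44 and their AA changes -0.03 to 0.07.

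**Figure D4:**
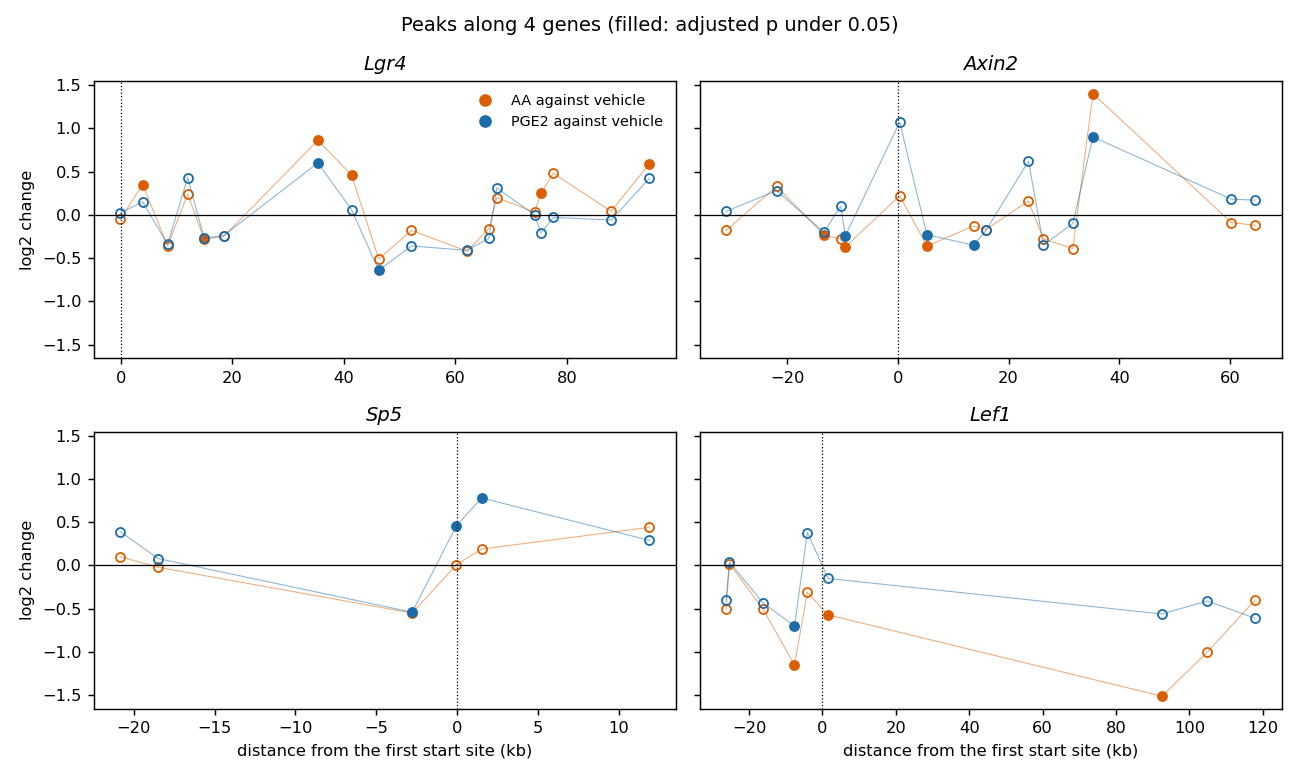
Log2 change of each tested peak against its distance in kb from the first RefSeq start site of Lgr4, Axin2, Sp5 and Lef1 (dotted line at 0); filled points had an adjusted p under 0.05, and lines join neighbours only to guide the eye. Changes with PGE2 at Sp5 peak at the start and just after it, the Axin2 start site is higher with PGE2 without passing, and at Lef1 all but 1 of the 9 AA values lie below 0.

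Notum had its main peak within the gene near one end. That peak, chr11:120659809-120661427, had 5.90 and 3.20 CPM in vehicle, 5.56 and 5.47 in AA, and 8.01 and 15.0 in PGE2. Both PGE2 libraries were the highest, but the libraries of a group lay far apart in vehicle and PGE2, and the change of 1.33 ± 0.48 did not pass (adjusted p = 0.151). The second peak, chr11:120658899-120659470, was lower with AA, from 5.44 and 7.10 CPM to 3.38 and 4.41 (-0.70 ± 0.19, adjusted p = 0.00305, up to 0.126 without vehicle replicate 2 or AA replicate 1). Summed over 3 peaks, PGE2 was above vehicle by 0.55 ± 0.15 (adjusted p = 0.00924), with 16.2 and 23.7 CPM against 14.0 and 13.2. That call rested on PGE2 replicate 2: without it the change was 0.25 (adjusted p = 0.17), and it was also lost without vehicle replicate 1 or 2 (0.0527 and 0.0911) and with DESeq2 (0.0533). AA was below PGE2 by 0.79 ± 0.15 (adjusted p = 0.00316), by 0.49 (adjusted p = 0.0126) without PGE2 replicate 2, by 1.04 without PGE2 replicate 1, and by 0.76 (adjusted p = 0.0701) without AA replicate 1.

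Nkd1 had no called peak in any comparison. Before adjustment, edgeR's p was under 0.05 for 1 of its 4 peaks with AA, 2 with PGE2 and 1 between AA and PGE2, and DESeq2 called 0 of the 4, 2 and 0 peaks for which it gave an adjusted p. Its strongest peak, chr8:88520336-88521853, had 4.44 and 4.81 CPM in vehicle, 6.19 and 5.38 in AA, and 5.65 and 6.33 in PGE2, so that the treated libraries lay above vehicle (0.33 ± 0.17 and 0.37 ± 0.17, adjusted p = 0.149 and 0.113). The peak nearest a start site, chr8:88522000-88522387, was at 1.38 and 1.53 CPM in vehicle and 0.763 and 0.694 in PGE2 (-0.99 ± 0.42, adjusted p = 0.084). A peak deep in the gene, chr8:88566206-88566672, had 2.60 and 2.44 CPM in vehicle and 1.62 and 1.47 in AA (-0.70 ± 0.29, adjusted p = 0.0626). Summed without peaks within 3 kb of a gene end, Nkd1 was lower with AA by 0.64 (adjusted p = 0.0192), while the sum over all 4 peaks was at -0.06 (adjusted p = 0.753).

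Among the TCF/LEF factors, Lef1 showed the largest loss of the set with AA. Summed over 9 peaks it fell 1.51-fold (-0.60 ± 0.08, adjusted p = 2.6e-05), from 7.48 and 7.35 CPM per kb in vehicle to 4.65 and 5.19 in AA, with 6.28 and 6.39 in PGE2. The groups did not overlap. The AA call held without any 1 library (-0.67 to -0.51) and without peaks within 3 kb of a gene end (-0.56, adjusted p = 6.21e-07). PGE2 was lower than vehicle by 0.23 (adjusted p = 0.0296, up to 0.145 without a vehicle library, 0.218 with DESeq2), and AA was below PGE2 by 0.37 ± 0.08 (adjusted p = 0.00618; 0.126 without AA replicate 1, 0.0732 with DESeq2).

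Within Lef1 the 3 peaks called lower with AA lay before the gene, near an alternative start and deep in the gene. No peak covered the first 2 RefSeq starts. The peak nearest any start, chr3:131110847-131112795, reaches the window of a later, alternative start and had 13.7 and 12.4 CPM in vehicle, 7.88 and 9.79 in AA, and 12.1 and 11.4 in PGE2. Both AA libraries were the lowest (-0.57 ± 0.13, adjusted p = 0.000504, 0.0579 without AA replicate 1), and PGE2 was at -0.15 (adjusted p = 0.399). At chr3:131202488-131203090, deep in the gene, 2.76 and 2.67 CPM in vehicle became 1.06 and 0.816 in AA (-1.51 ± 0.33, adjusted p = 0.000323), with 1.45 and 2.24 in PGE2. The upstream peak chr3:131102493-131102855 fell by 1.15 with AA (adjusted p = 0.00165) and by 0.70 with PGE2 (adjusted p = 0.0477, up to 0.201 as single libraries were left out). AA was below PGE2 by 0.69 ± 0.16 (adjusted p = 0.00423, up to 0.0989 without AA replicate 2 or PGE2 replicate 2) at chr3:131105767-131106592, where vehicle had 6.97 and 5.42 CPM, AA 5.28 and 4.65, and PGE2 7.17 and 8.95.

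Tcf7, which encodes TCF1, had 3 peaks, and their summed signal did not pass (-0.06 ± 0.10 with AA and 0.06 ± 0.09 with PGE2, adjusted p = 0.672 and 0.637). The sum depended on the peaks included: within 10 kb of a gene end PGE2 was at 0.35 (adjusted p = 0.0298), and without peaks within 3 kb PGE2 was at -0.43 and AA at -0.34 (adjusted p = 0.012 and 0.0379). Its start-site peak, chr11:52282526-52284538, had 12.3 and 12.8 CPM in vehicle, 13.9 and 14.4 in AA, and 15.1 and 19.4 in PGE2. Both PGE2 libraries were above the other 4 (0.45 ± 0.12, adjusted p = 0.00248). The change was 0.26 (adjusted p = 0.164) without PGE2 replicate 2 and 0.28 (adjusted p = 0.0587) with gene-end peaks scaled on their own. The internal peak chr11:52268084-52268927 was lower with PGE2 (-0.57, adjusted p = 0.0445), with adjusted p up to 0.267 without vehicle replicate 1 or 2, AA replicate 2 or PGE2 replicate 2. With AA it was at -0.50 (adjusted p = 0.0664).

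Tcf7l2, which encodes TCF4, the main TCF factor of the gut epithelium, gained signal with AA. Its sum covers 24 peaks and leaves out 20 others inside the gene. Summed CPM were 230 and 242 in vehicle, 263 and 257 in AA, and 248 in both PGE2 libraries. Both AA libraries were the highest, with a change of 0.14 ± 0.03 (adjusted p = 0.00283; 0.11 and 0.0657 without vehicle replicate 1). PGE2 was at 0.08 (adjusted p = 0.083). The gain was clearest at chr19:55732492-55733474, 8814 bp upstream of the gene, with 25.7 and 29.1 CPM in vehicle, 40.5 and 36.3 in AA, and 31.1 and 32.3 in PGE2. The groups did not overlap, and the AA change was 0.49 ± 0.08 (adjusted p = 6.31e-06). AA exceeded PGE2 by 0.28 (adjusted p = 0.0179, 0.282 without AA replicate 1).

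Just inside Tcf7l2, 1031 bp after its main start, a weak peak at chr19:55742576-55743106 rose with PGE2, from 1.76 and 2.06 CPM to 4.12 and 7.10 (1.55 ± 0.25, adjusted p = 1.23e-05), with 3.03 and 2.61 in AA. Every treated library lay above vehicle, and AA was below PGE2 by 0.98 (adjusted p = 0.00392), or by 0.54 without PGE2 replicate 2 (adjusted p up to 0.253 without that library or either AA library). The peak at the main start site, chosen for mention after its values were seen, rose with both treatments, by 0.31 with AA (adjusted p = 0.00246) and by 0.34 with PGE2 (adjusted p = 0.00108). At an alternative start farther in, chr19:55895308-55895645, signal was only 1.06 to 2.01 CPM and no change passed. The strongest of the 24 peaks kept, chr19:55700249-55701441, was level, at 44.1 to 48.7 CPM in the 6 libraries. A loss with AA was called at chr19:55788319-55788726, from 12.6 and 13.9 CPM to 9.85 and 9.79 (-0.43 ± 0.12, adjusted p = 0.00473, 0.0796 without vehicle replicate 2).

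By position, 4 of the 9 member peaks within 1 kb of a gene end were higher with PGE2 and 0 lower, where 32.1% of all gene-end peaks were higher and 5.33% lower. Of the other 104 member peaks 6 were higher and 9 lower with PGE2, against 10.9% and 11.6% of all such peaks. With AA the 9 gave 1 higher and 0 lower (14.6% and 7.63% of all gene-end peaks) and the 104 gave 11 and 15 (17.1% and 15.0%). Between AA and PGE2 they gave 0 higher and 1 lower in AA (1.52% and 16.7%), and 5 and 8 (5.75% and 2.6%). The gene-end tilt with PGE2 was thus one that peaks of all genes shared. The 9 peaks took 13.3% and 15.0% of the member counts in PGE2 replicates 1 and 2, 12.5% and 13.2% in AA, and 12.1% and 11.8% in vehicle.

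**Figure D5:**
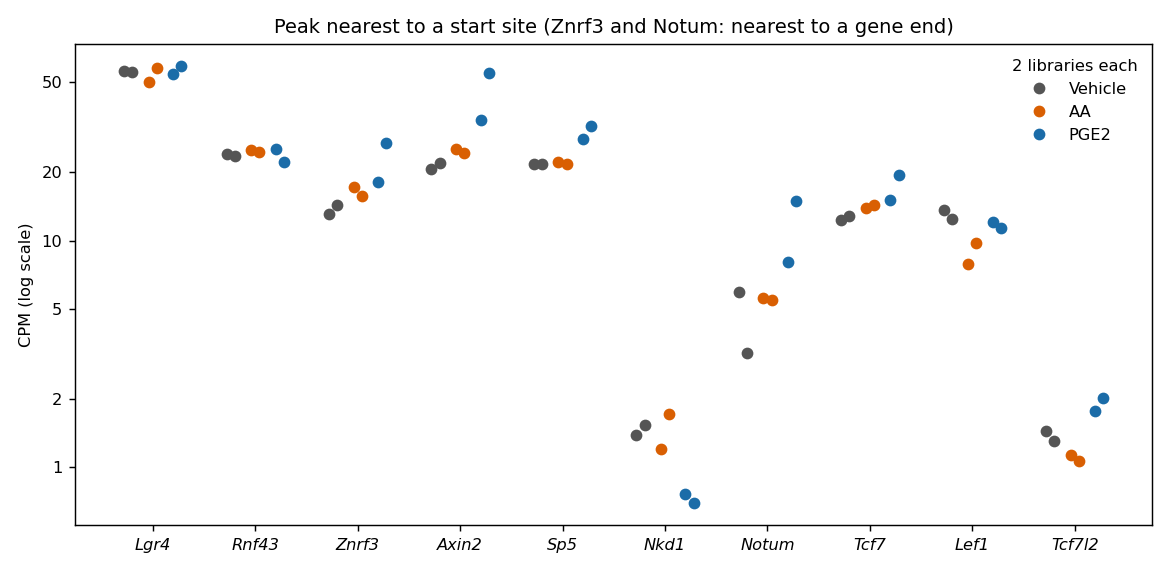
CPM (log axis) in each library of the peak nearest a start site of each gene, or nearest a gene end for Znrf3 and Notum. Both PGE2 points are above all others at the peaks shown for Znrf3, Axin2, Sp5, Notum, Tcf7 and Tcf7l2. PGE2 replicate 2 is the higher of the pair at each of these, and both AA points are lowest at Lef1 and Tcf7l2. At Tcf7l2 the peak shown is a weak one at an alternative start (1.06 to 2.01 CPM), where no change passed. The main-start peak of Tcf7l2, not shown, had 27.7 and 28.0 CPM in vehicle, 33.2 and 36.1 in AA, and 33.6 and 37.2 in PGE2.

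Other genes of the pathway were examined in the same fit. A list of 82 further Wnt genes had 557 peaks at 77 genes, 549 of them tested. With AA, 73 were higher and 79 lower (27.7%, median -0.06). With PGE2, 76 were higher and 60 lower (24.8%, median 0.01), and between AA and PGE2 17 were higher and 43 lower in AA (10.9%, median -0.05). The totals were near those of all peaks. By direction, AA against PGE2 gave 3.1% higher and 7.83% lower, against 5.06% and 4.88% of all peaks. Of the 31 peaks of the secreted inhibitors, 2 were higher and 12 lower with AA (6.45% and 38.7%, against 16.7% and 13.8% of all peaks), and 2 higher and 6 lower with PGE2 (6.45% and 19.4%, against 14.3% and 10.6%). Between the treatments 1 was higher and 4 lower in AA (3.23% and 12.9%). Receptors had 14 higher and 19 lower of 117 with AA, ligands 6 and 11 of 72, the destruction complex 17 and 8 of 104, nuclear factors 16 and 12 of 120, and other targets 18 and 17 of 105, all between 8.33% and 17.1% higher and between 7.69% and 16.2% lower.

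The peaks of this list with the smallest p are given here as a description. With AA, a peak of the cell-cycle gene Ccnd1 rose from a mean of 26.9 to 46.9 CPM (0.80 ± 0.08, adjusted p = 2.06e-11). One of Sox9, a crypt transcription factor, fell from 39.5 to 22.5 CPM (-0.81 ± 0.08, adjusted p = 1.06e-10), and one of Smoc2, a stem-cell marker, from 30.5 to 15.8 CPM (-0.95 ± 0.10, adjusted p = 1.77e-10). With PGE2, peaks of the casein kinases Csnk1a1 (0.75 ± 0.07) and Csnk1d (1.18 ± 0.12) and of the corepressor Ctbp2 (0.66 ± 0.07) rose. The Csnk1d peak was lower in AA than in PGE2 by 0.89 ± 0.12 (adjusted p = 4.06e-06), and one of Cd44, a target at the cell surface, was higher in AA by 0.49 ± 0.07 (adjusted p = 2.48e-05). A second, stronger peak of Csnk1a1 was also higher in AA than in PGE2 (0.28 ± 0.05, adjusted p = 0.000161), with means of 122 CPM in vehicle, 133 in AA and 110 in PGE2, and with PGE2 it lay below vehicle.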

How the data were processed

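ATAC-seq was measured in 6 libraries of sorted intestinal organoid cells, 2 each for vehicle, AA and PGE2, grouped by their titles. The authors deposited raw counts per consensus peak; per the file headers featureCounts 1.6.3 made them. Per the submitters' processing notes Trim Galore, BWA, Picard, SAMtools and MACS2 were used, with build mm10. Their settings, and any shift for the transposase, are not given in the sources at hand. Because 1 peak set served all libraries, regions outside it were not measured.

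Gene ends came from RefSeq, GRCm38.p6 (21883 protein-coding genes), and start sites from the RefSeq promoter windows, which were at hand for 8 of the 10 genes. No exon, intron or UTR annotation was used. A peak may regulate a gene other than the nearest.

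edgeR 4.0.16 (R 4.3.3) tested all peaks in 1 fit of the 6 libraries, by the quasi-likelihood F-test with robust fitting, TMM scaling (factors 0.969 to 1.02) and Benjamini-Hochberg adjustment over the 89347 peaks that filterByExpr kept of 90823, with a threshold of 0.05. Residual degrees of freedom were 3 and the median prior ones 42.3. Counts summed over a gene's peaks were tested in the same way over 16762 genes, in a fit of their own. Its library totals and TMM factors were taken over the peaks given to a gene. Summed CPM are therefore not the sum of the CPM of single peaks. CPM are counts divided by the TMM-scaled library total, on edgeR's CPM scale, and standard errors follow from the F statistic. Alternatives were DESeq2 1.42.0, other scalings, no filter, only the 2 groups compared, a replicate block, assignment within 10 kb, leaving out each library, and, chosen after seeing the data, sums without peaks within 3 kb of a gene end. Each set of sums, the main one included, was scaled anew over the peaks it kept.

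For each gene the text names the peak nearest a start site (or gene end), the one with the highest mean CPM, and in each comparison the called peak with the smallest p in each direction, or the one with the smallest p where none was called; for the other Wnt genes it names the 3 peaks with the smallest p. Members, lists and tests were chosen with earlier results of these data known. One further marker list is not reported here.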

Additional observations from a re-analysis of the deposited data

How the results depend on the processing

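DESeq2 called 7, 7 and 1 member peaks (AA against vehicle, PGE2 against vehicle, AA against PGE2), 47, 36 and 3 peaks of the other Wnt genes, and 2 of the 10 summed genes with PGE2. Assignment within 10 kb, which keeps fewer peaks, gave 12, 11 and 7 member peaks, 60, 71 and 33 other Wnt peaks, and 4 summed genes between AA and PGE2. Without peaks within 3 kb of a gene end, 7, 1 and 4 summed genes were called of the 9 left. Leaving out 1 library at a time gave 17 to 35, 9 to 20 and 6 to 14 member peaks, 100 to 174, 77 to 130 and 14 to 66 other Wnt peaks, and 3 to 5, 2 to 5 and 4 to 7 summed genes. Other settings stayed within 1.5 times. The shares of all peaks and genes called under each setting are not given here. A lower count can therefore not be read as particular to these genes.

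Of the results that reversed, 1 had been called: Znrf3 with AA, at 0.02 within 10 kb. The others had not been called. Within 10 kb the log2 changes were 0.01 for Rnf43 with AA, 0.21 for Znrf3 with PGE2 (adjusted p = 0.0257), 0.22, 0.04 and 0.19 for Nkd1 in the 3 comparisons, and 0.14 for Tcf7 with AA. Without peaks within 3 kb they were 0.03 for Rnf43 with AA, -0.00 for Axin2 with PGE2, and -0.43 (adjusted p = 0.012) and 0.09 for Tcf7 with PGE2 and between treatments. With gene-end peaks scaled separately the start-site peaks of Lgr4 (PGE2), Rnf43 (AA) and Sp5 (AA) gave -0.15, -0.00 and -0.04, and with library totals those of Lgr4 (PGE2) and Sp5 (AA) gave -0.02 and -0.02. DESeq2 gave 0.01 for the second Nkd1 peak with AA. As single libraries were left out, values ranged from -0.16 to 0.06 (AA) and -0.04 to 0.08 (PGE2) at the first Lgr4 peak, -0.11 to 0.08 at the first Rnf43 peak (PGE2), -0.28 to 0.24 at the second Nkd1 peak (AA), -0.10 to 0.79 at the second Notum peak (AA) and -0.06 to 0.01 at the second Tcf7l2 peak (AA). The summed values ranged from -0.03 to 0.03 for Rnf43 (AA), -0.03 to 0.01 for Znrf3 (PGE2), -0.14 to 0.11 and -0.18 to 0.08 for Nkd1 (PGE2, and AA against PGE2) and -0.05 to 0.17 for Tcf7 (PGE2). The cause was not tested.

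In each group the log2 CPM of replicate 2 was subtracted from that of replicate 1, peak by peak. These differences correlated between groups at 0.00494 (vehicle and AA), -0.0171 (vehicle and PGE2) and 0.0331 (AA and PGE2). No shared effect of the replicate number was seen, which does not settle whether same-numbered libraries shared a culture. With the replicate number as a block, 28, 19 and 14 member peaks, 156, 136 and 66 other Wnt peaks, and 4, 5 and 7 summed genes were called. The block brought 1 named result past the threshold, the Axin2 start-site peak with PGE2 (1.05, adjusted p = 0.0176), and ended no call among the 36 named peaks and 16 summed genes called. Depth limits peaks of a few CPM, as at Nkd1, Notum and much of Lef1.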

Other observations

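Among the secreted inhibitors of the pathway, Sfrp5, a decoy that binds Wnt ligands, had 5 tested peaks, and all 5 were lower with AA than in vehicle, by 0.69 to 1.06 on the log2 scale. With PGE2 the 5 changes ran from -0.69 to -0.19 and 2 of them passed. Dkk2, an inhibitor that binds the co-receptor Lrp6, had a peak at -0.75 with AA and -0.51 with PGE2, both called. A peak of Apcdd1, a membrane-bound inhibitor, fell by 1.25 with AA (adjusted p = 2.15e-06) and was at -0.20 with PGE2 (adjusted p = 0.42). In the other direction a peak of Sfrp2 rose by 1.58 with AA and 1.46 with PGE2. These peaks were chosen after their values were seen, and both treatments share the vehicle libraries.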
